A study of Mus musculus with 24 samples.

Results

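T lymphocytes were followed through 10 named genes, of which 8 had a row among the 14785 genes of the deposited table: Cd3d, Cd3e, Cd3g, Trac, Trbc2, Cd4, Cd8a and Nkg7. Gzma, which encodes granzyme A, and Il7r, which encodes the interleukin 7 receptor alpha chain, were not analysed here. The genes were chosen by name, as parts of the T cell antigen receptor, its coreceptors and cytotoxic granules. Levels are in FPKM, fragments scaled to transcript length and library depth, and 1 FPKM was the lowest mean of any gene in the table. A gene that is near 0 in sham therefore has a row through the groups in which it is high.

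The tissue was kidney, called cortical in the study's title, from male C57/BL6 mice aged 8 weeks per the labels and 8 to 9 weeks at the start per the study design. Of 10 animals per group, 4 were sequenced, giving 24 libraries in 6 groups of 4, with each library from a separate mouse. Sham surgery was the control. In UUO2 and UUO7 a ureter had been tied off for 2 and for 7 days. In R1W, R2W and R4W the ureter was tied off for 7 days and then reimplanted, and the mice recovered for 1, 2 and 4 weeks. No allele, transgene or drug was named for any group. The design asks how gene expression changes while the ureter is blocked and while the kidney repairs after the block is removed. No sham group of the recovery ages was used here. Replicate 2 of R4W carries a treatment label of 2 weeks and a title of 4 weeks, and it was grouped by its title.

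T cells recognise peptides on other cells with a receptor of variable alpha and beta chains, whose constant parts are encoded by Trac and Trbc2. The receptor signals through the CD3 chains, encoded by Cd3d, Cd3e and Cd3g, and the coreceptors CD4 and CD8 divide helper from cytotoxic T cells. Nkg7 encodes a membrane protein of cytotoxic granules that is made by cytotoxic T cells and by natural killer cells. In the mouse, Cd8a is also made by some dendritic cells. T cells are few in a healthy kidney and enter it during injury and inflammation. In bulk tissue, fewer cells of a type and less RNA per cell cannot be told apart.

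The 3 CD3 genes lie together on chromosome 9 within 40.1 kb (mm10 coordinates as deposited): Cd3g at chr9:44969572-44980431 on the minus strand, Cd3d at chr9:44981786-44987339 on the plus strand and Cd3e at chr9:44998740-45009627 on the minus strand. Cd3g and Cd3d are transcribed away from each other from starts 1355 bases apart. Cd3e overlaps the annotated transcripts Gm48719 and Gm48720, and whether the counting used strand is not given in the sources used here, so its reads may include theirs. Cd4 (chr6:124864692-124888221, minus strand), Cd8a (chr6:71373427-71379173, plus strand) and Trbc2 (chr6:41546730-41548352, plus strand) share chromosome 6. Trac lies at chr14:54220521-54224206 and Nkg7 at chr7:43437073-43438249, both on the plus strand. Trbc2 has a near-identical neighbour, Trbc1, and reads from the pair could be split between them.

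RefSeq promoter windows (GRCm38.p6) were at hand for 5 of the 8 genes, as the 250 bases upstream of the RefSeq start. The RefSeq starts of Cd3e and Nkg7 lie inside the genes as deposited, so the last bases of these windows overlap the deposited gene, and distances below are counted from the RefSeq start. The windows of the CD3 cluster and of Nkg7 are shown because the CD3 genes share a locus, while Nkg7 is the cytotoxic gene among the 8. Capitals mark matches to 2 short motifs searched on both strands: TGTGGT (reverse complement ACCACA), the core bound by RUNX factors, and AGGAAG (reverse complement CTTCCT), a core bound by ETS factors. The motifs do not overlap each other in these windows.
Cd3g promoter, chr9:44980432-44980681, minus strand: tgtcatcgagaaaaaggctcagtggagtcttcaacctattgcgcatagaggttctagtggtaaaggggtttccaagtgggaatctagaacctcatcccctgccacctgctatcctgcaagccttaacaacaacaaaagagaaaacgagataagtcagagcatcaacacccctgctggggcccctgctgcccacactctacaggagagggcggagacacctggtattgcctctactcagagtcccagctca
Cd3d promoter, chr9:44981536-44981785, plus strand: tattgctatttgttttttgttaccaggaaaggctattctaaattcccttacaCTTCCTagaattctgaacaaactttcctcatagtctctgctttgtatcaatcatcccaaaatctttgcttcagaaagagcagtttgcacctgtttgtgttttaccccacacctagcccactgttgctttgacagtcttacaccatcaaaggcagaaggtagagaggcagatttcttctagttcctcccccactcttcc
Cd3e promoter, chr9:45009612-45009861, minus strand: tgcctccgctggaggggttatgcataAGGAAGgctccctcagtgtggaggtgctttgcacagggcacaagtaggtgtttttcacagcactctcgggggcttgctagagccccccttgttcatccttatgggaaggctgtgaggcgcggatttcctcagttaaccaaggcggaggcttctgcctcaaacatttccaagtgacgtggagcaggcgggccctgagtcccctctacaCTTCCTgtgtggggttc
Nkg7 promoter, chr7:43436888-43437137, plus strand: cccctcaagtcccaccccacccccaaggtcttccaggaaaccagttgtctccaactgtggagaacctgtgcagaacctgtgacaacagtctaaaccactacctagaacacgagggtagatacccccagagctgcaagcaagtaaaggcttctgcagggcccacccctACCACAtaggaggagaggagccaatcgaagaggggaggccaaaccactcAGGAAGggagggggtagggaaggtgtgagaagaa
The ETS core was found 1 time in the Cd3d window, 198 bases upstream of the start, and 2 times in the Cd3e window, 224 and 17 bases upstream. The Nkg7 window held 1 RUNX core at 83 bases and 1 ETS core at 34 bases upstream. This Nkg7 ETS core, and most of the Cd3e core at 17 bases, lie inside the genes as deposited. Neither motif was found in the windows of Cd3g or Cd8a. Of 32851 promoter windows of the same length, 14.0% held the RUNX core and 29.5% the ETS core, so each motif is common and a match is a description of these letters.

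Kidney identity was checked on 7 tubule and podocyte markers, all of which had a row, with summed levels of 5370 to 5610 FPKM in sham. Counting steps in the values implied 25050000 to 36350000 fragments in 20 libraries, and no such step was found in the 4 UUO2 libraries. The mitochondrial ribosomal RNA mt-Rnr1 was at 2343 to 2832 FPKM in UUO2 and at 342 to 709 FPKM in the other 20 libraries, so a difference in library making and the time point cannot be told apart for UUO2. At the median implied depth, 1 FPKM stood for about 75.9 fragments of Cd3e, 94.2 of Cd8a and 17.1 of Trbc2 (longest annotated transcript), so the lowest sham values rest on few fragments. Adipocyte genes were raised in replicate 2 of sham and replicates 1 and 3 of R4W, where Adipoq was at 12.54 to 79.67 FPKM against 0 to 0.79 in the other 21 libraries.

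Genes were compared with limma on log2(FPKM + 1) over all 24 libraries, with p-values adjusted over all 14785 genes by the Benjamini-Hochberg method and called at an adjusted p under 0.05. A log2 difference on this scale understates the change of genes near 0, so ratios of mean FPKM are given beside it. The median gene itself lay above sham in the deposited scale, by 0.42 at UUO7 and 0.30 at R4W (log2). After each library was rescaled to a common median ratio these shifts were 0.01 and -0.01, and the genes called at UUO7 changed from 8880 higher and 2632 lower to 5393 higher and 5396 lower. The 8 genes gave the same calls in number and direction under both scalings in all 9 comparisons.

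**Figure D1:**
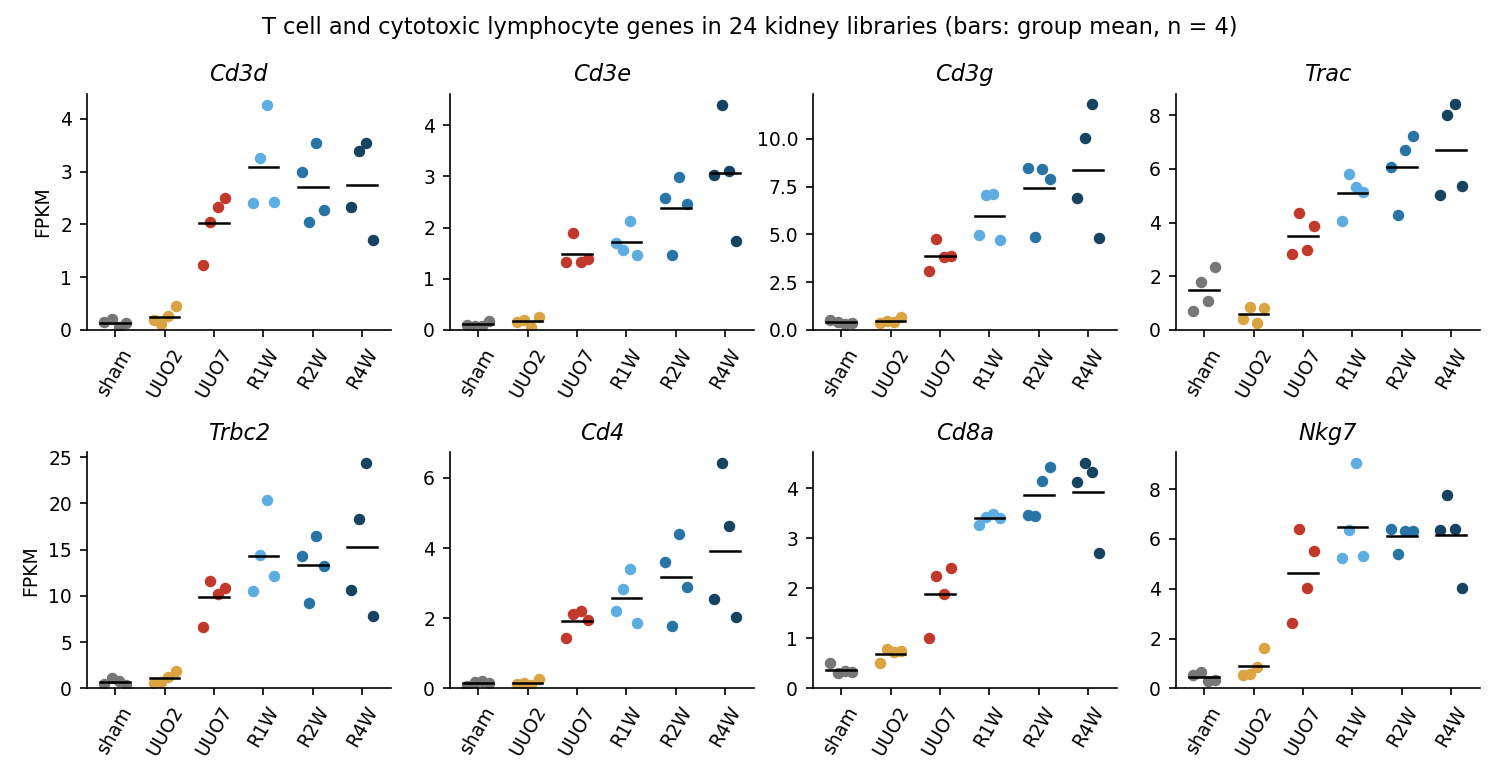
Level of each of the 8 genes (FPKM, linear axis from 0) in every library of the 6 groups; points are libraries in replicate order and bars are group means (n = 4). The genes are low in sham and UUO2, high in UUO7 and high in the 3 recovery groups, with replicate 4 of R4W the lowest of its group for 7 of the 8 genes.

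After 2 days of obstruction none of the CD3 chains passed the test against sham, and Trac had fallen. Cd3g, which encodes the gamma chain of CD3, was at 0.50, 0.44, 0.31 and 0.38 FPKM in sham and at 0.34, 0.47, 0.42 and 0.66 FPKM in UUO2. The groups overlapped, and the log2 difference of 0.06 (SE 0.20) had an adjusted p of 0.820 by limma. The ratio of the UUO2 mean to the sham mean was 1.16 for Cd3g, 1.82 for Cd3d (adjusted p = 0.574) and 1.58 for Cd3e (adjusted p = 0.719). The UUO2 libraries of Cd3d were at 0.18, 0.11, 0.26 and 0.45 FPKM and those of Cd3e at 0.16, 0.20, 0.06 and 0.26 FPKM, and both overlapped sham. In the authors' deposited table their log2 fold changes were 0.76 (adjusted p = 0.301) and 0.83 (adjusted p = 0.364), and that of Cd3g was 0.07. Of the 8 genes, limma called 0 higher and 1 lower, against 32.3% of all genes called higher and 17.0% called lower. At an unadjusted p under 0.05, 1 was higher and 1 lower. Rescaling changed the counts of all genes from 4772 higher and 2507 lower to 3739 and 3776. The median log2 difference of the 8 was 0.10, beside 0.09 over all genes, on a scale that compresses levels this low. The ratio of mean FPKM had a median of 1.57 and was over 1.5 for 5 of the 8 genes, with Trbc2 at 1.56 and Nkg7 at 1.95, none of which passed the test.

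Trac, the constant part of the alpha chain, was the gene called lower. It was at 0.72, 1.80, 1.08 and 2.34 FPKM in sham and at 0.41, 0.85, 0.25 and 0.83 FPKM in UUO2. Every UUO2 library lay below the sham mean of 1.48, although the groups overlapped (0.394 times the sham mean, log2 difference -0.62, SE 0.20, limma adjusted p = 0.0145). The call was lost without replicate 4 of sham (adjusted p = 0.0699) or replicate 3 of UUO2 (0.0583). In the authors' deposited table the log2 fold change of Trac was -1.14 with an adjusted p of 0.0278.

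Cd8a, the alpha chain of the CD8 coreceptor, was at 0.50, 0.30, 0.35 and 0.33 FPKM in sham and at 0.51, 0.79, 0.73 and 0.75 FPKM in UUO2. The UUO2 libraries all lay above the sham libraries (0.50 against 0.51 FPKM at the closest), and no other of the 8 genes separated the groups; 28.3% of all genes were higher without overlap. The UUO2 mean was 1.88 times that of sham, and the log2 difference of 0.31 (SE 0.14) had an adjusted p of 0.0720 by limma over all 24 libraries. It passed at a pseudocount of 0.1 (0.761, adjusted p = 0.00541) and when the 8 libraries were fitted alone (0.306, adjusted p = 0.0176), and the authors' deposited table gives 0.73 with an adjusted p of 0.00991. Nkg7 also passed at that pseudocount (0.761, adjusted p = 0.0410).

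Genes of most leukocytes and of macrophages had risen by then. Of 12 genes made by most leukocytes, 10 were called higher at UUO2 and 0 lower, with a median log2 difference of 0.94. Beside the counts of this paragraph, 32.3% of all genes were called higher and 17.0% lower. Sham means were under 1 FPKM for 6 of these 12 genes, 7 of the 16 macrophage and dendritic cell genes and 17 of the 24 T cell genes below. Such genes have a row only through the groups where they are high, so the counts are a description. Cd52, a surface protein of leukocytes and the most abundant of the 12, rose by 1.57 (SE 0.30, adjusted p = 1.73e-04). Coro1a, a regulator of actin in leukocytes, rose by 1.51 (adjusted p = 1.60e-04) and Ptprc, which encodes the leukocyte surface protein CD45, rose by 0.61 (SE 0.18, adjusted p = 0.00767). Of 16 macrophage and dendritic cell genes with a row, 10 were called higher and 1 lower, with a median of 1.21, and the lysozyme gene Lyz2 rose by 1.46 (adjusted p = 6.42e-04). Of 5 B cell and plasma cell genes with a row, limma called 0 higher and 1 lower, with a median of -0.12, the same counts as at an unadjusted p under 0.05. For the lower genes, 1 of 5 is near the 17.0% over all genes. The gene called lower was Igkc, the constant part of the kappa light chain (-1.02, adjusted p = 0.0152). Of 24 further genes of T cell identity and receptor signalling with a row, 2 were called higher and 0 lower, with a median of 0.06. Thy1, a surface protein that fibroblasts and other stromal cells also make, was among them and rose by 1.51 (SE 0.33, adjusted p = 7.11e-04). The other was Lck, the kinase that starts T cell receptor signalling, which rose by 0.47 (SE 0.19, adjusted p = 0.0458), from a mean of 0.468 ± 0.131 FPKM in sham to 1.06 ± 0.403 FPKM in UUO2 (SD, n = 4).

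At 7 days of obstruction all 8 genes were higher than in sham and higher than at 2 days. Each comparison called 8 of 8 higher, against 60.1% of all genes called higher in UUO7 against sham and 52.0% in UUO7 against UUO2. The sham means of 7 of the 8 were below the table's lowest gene mean of 1 FPKM, so these have a row only through the groups where they are high. The count of 8 is therefore a description and is not read against the share over all genes. The median log2 difference of the 8 from sham was 1.37, beside 0.42 over all genes. In these libraries the lowest UUO7 value lay above the highest sham value for each of the 8 genes, which held for 56.9% of all genes.

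Among the CD3 chains, Cd3g was at 3.11, 4.75, 3.80 and 3.87 FPKM in UUO7, with a mean of 3.88 ± 0.672 against 0.407 ± 0.0814 in sham (SD, n = 4). That is 9.53 times the sham mean and a log2 difference of 1.79 (SE 0.20, limma adjusted p = 5.45e-08). Cd3e, the epsilon chain, was at 0.09, 0.08, 0.08 and 0.18 FPKM in sham and at 1.32, 1.90, 1.32 and 1.38 FPKM in UUO7. Its mean was 13.8 times that of sham (log2 difference 1.16, SE 0.16, adjusted p = 1.25e-06). Cd3d, the delta chain, was at 0.15, 0.21, 0.06 and 0.13 FPKM in sham and at 1.24, 2.04, 2.33 and 2.51 FPKM in UUO7, 14.8 times the sham mean (log2 difference 1.39, SE 0.18, adjusted p = 4.30e-07). All 3 CD3 chains thus separated the groups in every library.

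The receptor chains differed in where they started. Trbc2, the constant part of the beta chain, was at 0.53, 1.10, 0.77 and 0.43 FPKM in sham and at 6.68, 11.66, 10.17 and 10.82 FPKM in UUO7. Its mean was 13.9 times that of sham (log2 difference 2.66, SE 0.28, adjusted p = 2.78e-08). This log2 difference was the highest of the 8 on the log2(FPKM + 1) scale, while the ratio of means was higher for Cd3d and the authors' deposited table has higher log2 fold changes for Cd4 (3.54) and Cd3e (3.53) than for Trbc2 (3.34). Trac, at 2.84, 4.34, 2.98 and 3.88 FPKM in UUO7, had the lowest, 0.89 (SE 0.20, adjusted p = 4.16e-04). Trac was the most abundant of the 8 in sham, with a mean of 1.48 ± 0.726 FPKM, and Trbc2 in each of the other 5 groups. Within a library, Trac per Cd3g was 1.44, 4.09, 3.48 and 6.16 in sham and between 0.712 and 1.12 in R4W, and it was 0.784 to 1.00 in UUO7. Trbc2 per Cd3g had means of 1.79 ± 0.807 in sham and 1.76 ± 0.235 in R4W (SD, n = 4). Trac per Cd3g was thus higher in every sham library than in any UUO7 or R4W library, and Trbc2 per Cd3g overlapped between sham and R4W. Neither ratio was tested.

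Both coreceptors were higher in UUO7. Cd4 was at 0.07, 0.19, 0.21 and 0.16 FPKM in sham and at 1.45, 2.13, 2.20 and 1.96 FPKM in UUO7, 12.3 times the sham mean (log2 difference 1.34, SE 0.22, adjusted p = 1.28e-05). Cd8a was at 1.01, 2.25, 1.88 and 2.40 FPKM in UUO7, 5.09 times the sham mean (log2 difference 1.05, SE 0.14, adjusted p = 6.57e-07). Cd8a was thus above Cd4 in every sham library and on either side of it in UUO7. Cd8a per Cd4 was 7.14, 1.58, 1.67 and 2.06 in sham and 0.697, 1.06, 0.855 and 1.22 in UUO7, with no overlap. On the log2(FPKM + 1) scale the difference of the ratio was -0.29 (exact permutation test, two-sided, p = 0.114, adjusted over 4 ratio tests 0.152). With no pseudocount it was -1.414, with an adjusted p of 0.0571; the smallest exact p that 4 against 4 libraries allow is 0.0286, and the sham ratio rests on very low Cd4.

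Nkg7 was at 0.55, 0.66, 0.32 and 0.33 FPKM in sham and at 2.61, 6.41, 4.05 and 5.53 FPKM in UUO7. The groups did not overlap, and the mean was 10.0 times that of sham (log2 difference 1.90, SE 0.21, adjusted p = 6.16e-08). Nkg7 per Cd3g was 1.13 ± 0.268 in sham and 1.17 ± 0.271 in UUO7 (SD, n = 4), so its ratio to a CD3 chain overlapped between these groups. Of 7 further cytotoxic and natural killer genes with a row, of 23 listed, 7 were called higher at UUO7 and 0 lower, with a median of 1.82. Srgn, the most abundant of them, encodes the proteoglycan of secretory granules and also rose by 1.82 (adjusted p = 1.30e-08). Ccl5, a chemokine made by activated and cytotoxic lymphocytes among other cells, and Serpinb9, an inhibitor of granzyme B, were the 2 genes of that list already called at UUO2 (1.28 and 1.15).

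Leukocyte genes of other lineages were higher at UUO7 as well. At UUO7 12 of 12 pan-leukocyte genes and 16 of the 17 macrophage and dendritic cell genes, which are those with a row, were called higher, with medians of 2.91 and 3.80 on the log2(FPKM + 1) scale, against 1.37 for the 8 genes. This scale compresses genes that are near 0 in sham. As plain ratios of mean FPKM to sham, the medians were 14.3 for the pan-leukocyte genes, 22.4 for the macrophage and dendritic cell genes and 11.1 for the 8 genes. The range was 2.36 to 14.8 for the 8 genes and 4.97 to 23.2 for the pan-leukocyte genes. Summed over the list, macrophage and dendritic cell genes rose from 69.8 to 124 FPKM in sham to 1510 to 1780 FPKM in UUO7, and the 8 genes from 3.11 to 4.78 FPKM to 20.3 to 35.5 FPKM. Of the 44 further T cell genes listed, 20 have no row and were not analysed here; of the other 24, 23 were called higher and 0 lower (median 1.33). Genes near 0 in sham have a row only through the groups where they are high, so this count, and that of the 7 cytotoxic genes, is a description and no support. The same holds for the pan-leukocyte list, where 6 of 12 genes had a sham mean under 1 FPKM, and for the macrophage and dendritic cell list, where 7 of 16 did. The kidney markers fell in 6 of 7, to a sum of 1950 to 2270 FPKM. FPKM values are shares of a library, and the part that the loss of tubular RNA has in the rise of the other genes was not tested beyond the rescaling above.

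**Figure D2:**
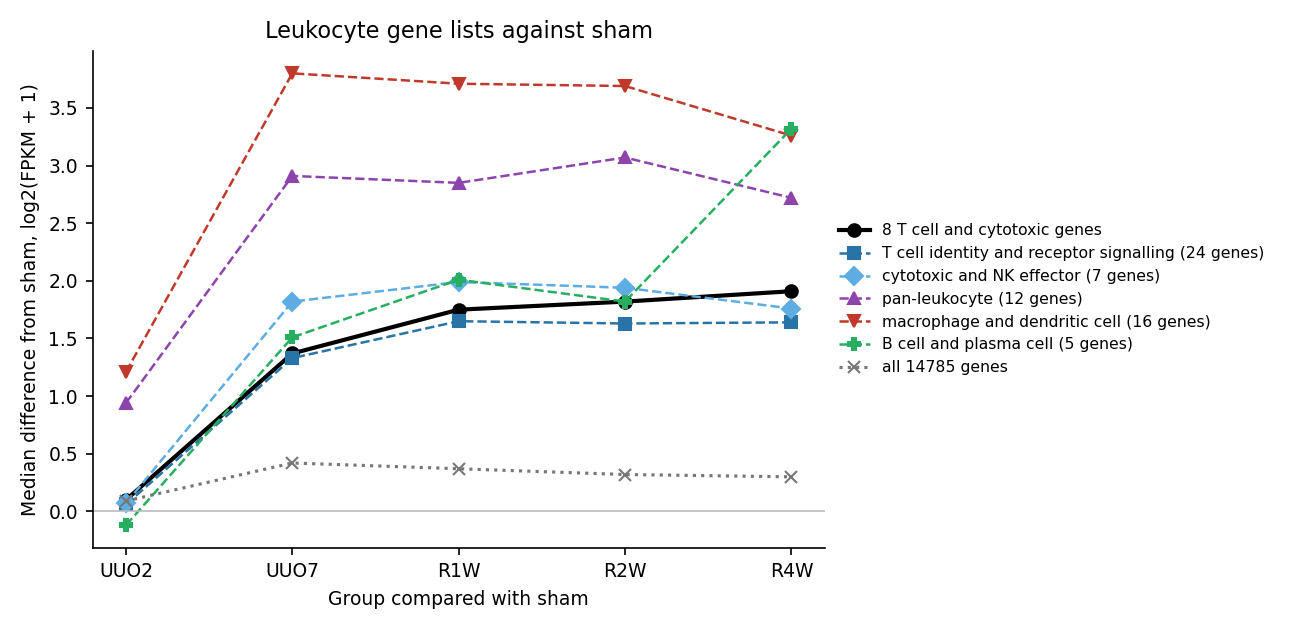
Median difference from sham in log2(FPKM + 1) of the 8 genes, of 5 lists of leukocyte genes and of all genes, at each of the 5 other groups. The 8 genes lie at 0.10 in UUO2, where the pan-leukocyte list is at 0.94, and go from 1.37 in UUO7 to 1.91 in R4W, while the macrophage list goes from 3.80 to 3.26. This scale compresses levels near 0, and the ratio of mean FPKM of the 8 genes in UUO2 to sham had a median of 1.57.

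After the ureter was reimplanted the genes stayed above sham. At 1, 2 and 4 weeks of recovery 8 of 8 genes were called higher than in sham and 0 lower, against 59.4%, 56.1% and 54.8% of all genes called higher; the table's minimum mean bounds this count as at UUO7. The medians of the 8 were 1.75, 1.82 and 1.91, beside 0.37, 0.32 and 0.30 over all genes. At R4W the mean of Trbc2 was 21.6 times and that of Cd3e 28.5 times that of sham, with log2 differences of 3.14 (SE 0.28, adjusted p = 1.15e-08) and 1.84 (SE 0.16, adjusted p = 9.93e-09). Trac had the smallest ratio, 4.52, with a log2 difference of 1.65 (SE 0.20, adjusted p = 7.27e-07). The 24 further T cell genes with a row were called higher in each of the 3 recovery groups, a count bound by the table's minimum mean in the same way as at UUO7. Some of the 24 were well expressed in sham, with means of 6.36 FPKM for Gata3, 3.33 for Ets1 and 2.22 for S1pr1. The highest sham mean of the 8 was 1.48 FPKM, for Trac. Which cells made these transcripts was not tested. Comparisons against sham share the same 4 sham libraries.

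The kidney markers rose again at the same time. Their summed level was 3080 to 4130 FPKM in R1W and 4040 to 4970 FPKM in R4W, and 7 of 7 were called higher in R4W against UUO7. Of the 8 T cell and cytotoxic genes, 0 were called lower in R1W or R4W against UUO7 by limma, and 0 were lower at an unadjusted p under 0.05. Of all genes 8.04% were called lower in R1W and 30.8% in R4W, so 0 of 8 in R1W is near the share over all genes.

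In the first week of recovery Cd8a was the gene that rose. It was at 3.26, 3.42, 3.49 and 3.41 FPKM in R1W, all above the highest UUO7 value of 2.40. The log2 difference was 0.64 (SE 0.14, limma adjusted p = 0.00542), and 1 of 8 genes was called higher against 6.47% of all genes (4 of 8 at an unadjusted p under 0.05). The other genes had positive differences that did not pass, from 0.13 for Cd3e to 0.50 for Cd3g (SE 0.20, adjusted p = 0.0857). The authors' deposited table lists 3 of the 8 as higher, with Cd3g (0.63, adjusted p = 0.0105) and Trac (0.53, adjusted p = 0.0394) beside Cd8a (0.88, adjusted p = 2.31e-04).

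By 4 weeks of recovery 5 of the 8 genes were higher than at the end of obstruction, and 0 were lower. They were the gamma and epsilon chains of CD3, the alpha chain constant part and both coreceptors. Of all genes, 17.6% were called higher and 30.8% lower in this comparison (2604 and 4551 genes, or 3717 and 3431 after rescaling). The median log2 difference of the 8 was 0.67, beside -0.08 over all genes, and 0.72 after rescaling.

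Cd3g was at 6.91, 10.04, 11.80 and 4.79 FPKM in R4W, each above the highest UUO7 value of 4.75. Its log2 difference of 0.89 (SE 0.20, adjusted p = 0.00102) was the largest of the 8. Cd8a, at 4.12, 4.51, 4.32 and 2.70 FPKM, and Trac, at 5.04, 8.02, 8.40 and 5.38 FPKM, also lay above every UUO7 library. Their log2 differences were 0.78 (SE 0.14, adjusted p = 1.48e-04) and 0.76 (SE 0.20, adjusted p = 0.00425). These 3 genes were the members whose libraries did not overlap, as 17.9% of all genes were higher without overlap.

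Cd3e was at 3.02, 4.40, 3.11 and 1.73 FPKM in R4W, and replicate 4 overlapped with UUO7. The mean was 2.07 times that of UUO7 (log2 difference 0.68, SE 0.16, adjusted p = 0.00174). Cd4, at 2.55, 6.42, 4.64 and 2.03 FPKM, had its highest value in replicate 2, and replicate 4 lay among the UUO7 libraries. Its log2 difference of 0.66 (SE 0.22) had an adjusted p of 0.0185, which was lost without replicate 1 of UUO7 (0.0588), replicate 2 of R4W (0.0921) or replicate 3 of R4W (0.0615). It was also lost in a fit of these 8 libraries alone (0.0677) and when replicate 2 of R4W was placed at 2 weeks, as its treatment label says (log2 difference 0.429, adjusted p = 0.146).

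The remaining genes did not pass. Trbc2 was at 10.59, 18.28, 24.35 and 7.79 FPKM in R4W, Cd3d at 2.33, 3.40, 3.54 and 1.70 FPKM and Nkg7 at 6.35, 7.78, 6.40 and 4.05 FPKM. Each overlapped UUO7, with log2 differences of 0.49 (adjusted p = 0.153), 0.29 (0.180) and 0.36 (0.162). Trbc2 passed without replicate 4 of R4W (log2 difference 0.744, adjusted p = 0.0316). The authors' deposited table lists 6 of the 8 as higher, with Cd3d (0.63, adjusted p = 0.0379) beside the 5 genes above.

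**Figure D3:**
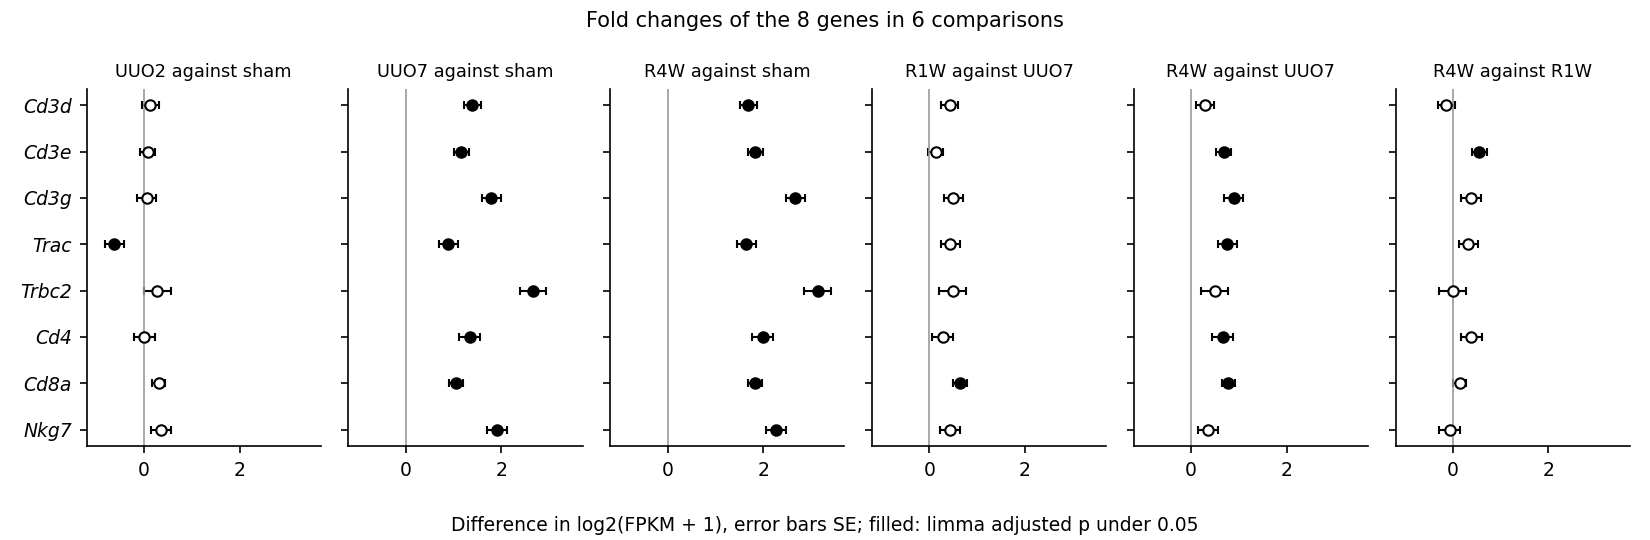
Difference in log2(FPKM + 1) of each of the 8 genes in 6 comparisons (points), with SE from limma (bars); filled points have an adjusted p under 0.05. In UUO2 against sham the filled point is Trac, below 0; in UUO7 and R4W against sham all 8 are filled; in R4W against UUO7 Cd3e, Cd3g, Trac, Cd4 and Cd8a are filled.

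Between 1 and 4 weeks of recovery Cd3e was the gene of the 8 that was called higher, with 5.06% of all genes called higher. It was at 1.70, 1.56, 2.13 and 1.46 FPKM in R1W, and replicate 4 of R4W lay within that range. The log2 difference was 0.55 (SE 0.16, adjusted p = 0.0236), and the authors' deposited table gives 0.73 (adjusted p = 0.0344). The call was lost without replicate 4 of R1W (0.0559) and without replicate 1 (0.0544), 2 (0.0776) or 3 (0.0518) of R4W, and in a fit of the 8 libraries alone (0.104). It was also lost at a pseudocount of 0.1 and with replicate 2 of R4W placed at 2 weeks, as its treatment label says. Without replicate 4 of R4W, Cd3g passed as well (log2 difference 0.594, adjusted p = 0.0385). Cd3d (-0.14) and Nkg7 (-0.07) were slightly below R1W and Trbc2 was at 0.00, none of them past the test.

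Counts for lists of other leukocyte genes in R4W against UUO7 follow, and no test compared the lists. Of all genes, 17.6% were called higher and 30.8% lower in this comparison. Of the 12 pan-leukocyte genes, limma called 0 higher and 0 lower, with a median of -0.17 (-0.06 after rescaling). At an unadjusted p under 0.05, 1 was higher and 0 lower. Ptprc differed by 0.12 (SE 0.18, adjusted p = 0.608), and Itgal, an integrin chain of lymphocytes and other leukocytes, by 0.54 (adjusted p = 0.0731). Of 16 macrophage and dendritic cell genes 1 was called higher and 2 lower. Of 5 B cell and plasma cell genes with a row 3 were called higher, and their summed level was 179 to 712 FPKM in R4W against 64.8 to 111 FPKM in UUO7.

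Set against Ptprc within each library, Cd3e was 0.130, 0.138, 0.137 and 0.114 in UUO7 and 0.304, 0.260, 0.209 and 0.188 in R4W. Every R4W library lay above every UUO7 library, with means of 0.240 ± 0.0520 and 0.130 ± 0.0114 (SD, n = 4). On the log2(FPKM + 1) scale the ratio differed by 0.56 (exact permutation test, two-sided, p = 0.0286, which is the smallest this design allows, and 0.0571 adjusted over 4 tests). Cd3g per Ptprc showed the same separation, from 0.307 to 0.395 in UUO7 to 0.521 to 0.793 in R4W. Trbc2 per Ptprc overlapped, at 0.659 to 1.06 in UUO7 and 0.848 to 1.64 in R4W. Nkg7 per Ptprc also overlapped between these groups, with 0.400 ± 0.0970 and 0.492 ± 0.0985. Cd8a per Cd4 had overlapping values of 0.702 to 1.62 in R4W (difference from UUO7 0.12, exact permutation p = 0.629, adjusted 0.629).

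From sham to UUO7 the Cd3e to Ptprc ratio had a sign that depended on the scale. On log2(FPKM + 1) it differed by -1.36 (exact permutation p = 0.0286, adjusted 0.0571), while with no pseudocount the difference was 0.556 (adjusted p = 0.190). The plain ratios were 0.0714, 0.0606, 0.0748 and 0.186 in sham, and replicate 4 of sham lay above the UUO7 libraries. No direction is given for this ratio.

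**Figure D4:**
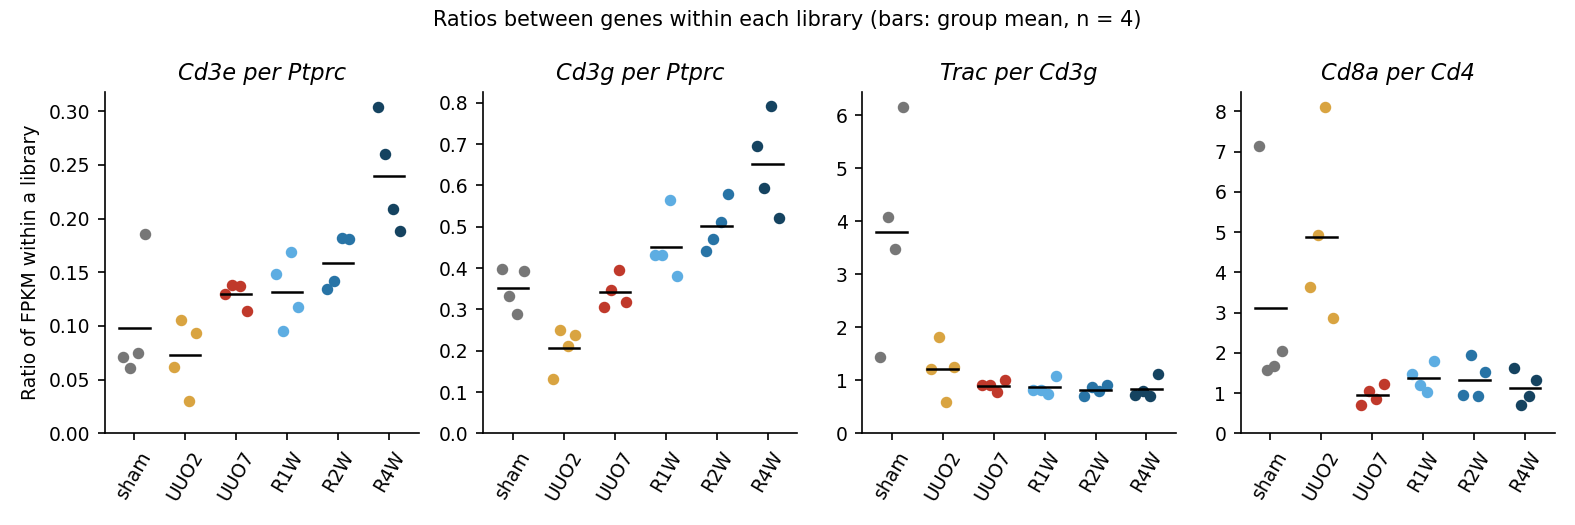
Ratios of FPKM within each library for 4 gene pairs (linear axes from 0; points are libraries in replicate order, bars are group means, n = 4). Cd3e per Ptprc and Cd3g per Ptprc are higher in every R4W library than in any UUO7 library, Trac per Cd3g is at 1.44 to 6.16 in sham, and Cd8a per Cd4 is spread widely in sham and UUO2.

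The wider T cell list held genes called in both directions between UUO7 and R4W. Of 24 genes, 7 were called higher and 2 lower, beside 17.6% and 30.8% of all genes, with a median of 0.28 (0.35 after rescaling) beside -0.08 over all genes. The 7 were the adhesion receptor Cd2 (0.73), the chemokine receptors Cxcr6 (0.66) and Cxcr3 (0.49), the signalling adaptor Lat (0.64), the CD8 beta chain Cd8b1 (0.62), the CD3 zeta chain Cd247 (0.46) and the interleukin 2 receptor beta chain Il2rb (0.46). Thy1 fell by 1.99 (SE 0.33, adjusted p = 8.02e-05) and Fyb, an adaptor made in T cells and in myeloid cells, by 0.99 (SE 0.31, adjusted p = 0.0127). Il2rg, the receptor chain shared by several interleukins, differed by 0.09 (adjusted p = 0.747). Summed over the 24 genes, the list was at 225 to 253 FPKM in UUO7 and 120 to 206 FPKM in R4W, a sum in which Thy1 is the most abundant gene. The sum and the count of called genes ran in opposite directions.

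Of the 7 cytotoxic genes, Ctsw, a protease of cytotoxic cells, was called higher in R4W than in UUO7 (0.31), while Ccl5 (-0.81) and the natural killer receptor chain Klrd1 (-0.42) were called lower. Of all genes, 17.6% were called higher and 30.8% lower, so 1 and 2 of 7 are near these shares. The median of the 7 was -0.19 (-0.11 after rescaling). Of 11 listed genes for chemoattractants, adhesion molecules and cytokines, 9 had a row, and Il7 was not among them. Of the 9, 4 were called higher and 5 lower. Those higher were Ccl21a (0.99) and Ccl19 (0.66), ligands of the receptor CCR7, with Cxcl9 (0.65), a ligand of CXCR3, and Il15 (0.47), a survival cytokine of natural killer and memory T cells. Those lower were Vcam1 (-1.80), Cxcl16 (-1.17), Ccl2 (-1.15), Cxcl10 (-1.12) and Icam1 (-0.92). Ligands of CXCR3 thus went both ways.

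Markers of other tissues differed between groups or between single libraries. The summed level of 6 adipocyte genes was 1660, 63.3, 405 and 70.3 FPKM in R4W replicates 1 to 4 and 137 to 192 FPKM in UUO7. Fabp4 made up most of that sum in UUO7, at 135 to 178 FPKM. Adipoq was at 0 to 0.790 FPKM there and Plin1 at 0 to 0.0600 FPKM. In R4W replicates 2 and 4, Fabp4 was at 60.97 and 69.38 FPKM. The UUO7 sum is therefore not read as a level of adipose tissue. The summed level of 6 urothelial genes was 46.2 to 151 FPKM in R4W and 19.3 to 36.6 FPKM in UUO7. It was 13.4 to 61.3 FPKM in R1W and 25.5 to 83.3 FPKM in R2W. It was 0.55 to 3.82 FPKM in UUO2, and in sham it was 1.74 to 3.10 FPKM except in replicate 2, at 39.5 FPKM. Of the 6 urothelial genes, UUO7 had 2 called higher than in sham and 6 called higher than in UUO2, and R4W had 4 called higher than in UUO7. The part of adipose tissue or urothelium in either rise of the T cell genes was not tested. Without replicates 1 and 3 of R4W and 2 of sham, which had the raised adipocyte genes, Cd3g, Cd3e, Cd8a and Trac were called in R4W against UUO7. The R4W libraries kept, replicates 2 and 4, had urothelial sums of 46.2 and 83.2 FPKM, still above UUO7. Cd4 was not called (log2 difference 0.700, adjusted p = 0.0519), and in R4W against R1W the call of Cd3e was lost (0.507, adjusted p = 0.144).

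Animals of 1 group differed together. In UUO7 replicate 1 was the lowest for 8 of the 8 genes, for Cd3e in a tie with replicate 3. In R2W replicate 2 was the lowest for 8 and in R4W replicate 4 for 7, while replicate 3 of R1W was the highest for 7. After each group mean was removed, the 28 pairs of the 8 genes had Pearson r between 0.39 and 0.89 over the 24 libraries, with a median of 0.64. Without that step r was 0.89 to 0.99. The 8 genes are therefore not independent of each other.

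The genes outside the 8 whose deviations were most like the mean of the 8 were Gimap3 (r = 0.941), Gimap7 (0.941), Gpr132 (0.938), Ptprcap (0.915), Trbc1 (0.915), Cxcr3 (0.913), Arhgap25 (0.901) and Cxcr6 (0.900), over 24 libraries after removal of group means. Over the same libraries without that step their r was 0.978 to 0.994. Gimap3 and Gimap7 encode GTPases of lymphocytes, Ptprcap encodes a protein bound to CD45, and Trbc1 is the other constant part of the beta chain. These values describe libraries that share depth and tissue composition, and no test was made of them. The mean level of Trbc1 was 0.683 ± 0.0465 FPKM in sham and 9.42 ± 4.35 FPKM in R4W (SD, n = 4).

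In order of mean level, Cd3g went from sham (0.407) through UUO2 (0.473), UUO7 (3.88), R1W (5.97), R2W (7.42) and R4W (8.38). Of its neighbours in that order, UUO2 and UUO7 differed past the test (log2 difference 1.72, SE 0.20, adjusted p = 2.10e-07), and sham and UUO2, and UUO7 and R1W, did not. R1W, R2W and R4W overlapped, and their neighbours in order were not tested. Cd3e and Trac had the same order from UUO7 on, as did Cd4 and Cd8a. Cd3d was highest in R1W, at 3.09 ± 0.882 FPKM, against 2.74 ± 0.880 in R4W, and Nkg7 was highest in R1W as well, at 6.49 ± 1.78 against 6.15 ± 1.55; these differences were smaller than the spread between animals. In R2W the libraries of Cd3g were at 8.49, 4.89, 8.41 and 7.88 FPKM and those of Nkg7 at 6.38, 5.38, 6.31 and 6.32 FPKM, with replicate 2 apart from the others for both.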

How the data were processed

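Bulk polyA RNA sequencing of kidney was analysed for 24 mice. The authors deposited 1 table, with 14785 genes as rows and libraries as columns. Neither headers nor labels name a unit; FPKM was inferred from the deposited values, whose sums differ between libraries by up to 1.16 times and 1.08 times after weighting by transcript length. Genes with a mean under 1 are not in it. Per the submitters' processing notes, mm10, FastQC, RSEM, Bowtie2 and DESeq2 were used, with no versions or order given. The deposited log2 fold changes and adjusted p-values are the authors' own; their test is not given in the sources used here, and their direction was read from the values.

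Groups and replicate numbers came from the sample titles. In R 4.3.3, limma 3.58.1 was used (lmFit, then eBayes with a trend in the variance) on log2(FPKM + 1) with all 24 libraries in 1 model, 9 contrasts and Benjamini-Hochberg adjustment over all genes (called under 0.05); the pipeline was tested on simulated data. Ratios within a library were compared by exact permutation (Python 3.11.15, numpy 2.4.6). p-values measure the spread between the mice sequenced. The depth was implied from the steps of low values, as the table holds no counts, and no count model was used. Scaling, pseudocount, filter, samples in the fit, fold minimum and left-out libraries were varied.

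The genes, the wider marker lists and the tests were chosen with earlier results of these data known. Every gene of the 10 with a row is described. Of the wider lists, counts, medians and some of the genes of highest mean (up to 4 a list) or largest called change are given. Genes outside that rule (Lck, Itgal, Ptprc as a single value, Ccl2, Ccl19, Ccl21a, Cxcl9, Il15, Lat, Cd8b1, Cd247 and Il2rb) are named after their values were seen. Gzma and Il7r were not analysed here.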

Additional observations from a re-analysis of the deposited data

Results flagged for a closer look

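Each of the 8 genes, and the ratios of Cd8a to Cd4 and Cd3e to Ptprc, was checked in each group of 4 libraries for a library far from the other 3 (60 checks, Dixon's ratio of gap to range at its 95% limit). Chance flags about 1 in 20 such checks, which is 3.00 here, and 4 were found. Cd3e was at 0.18 FPKM in replicate 4 of sham and at 0.08 to 0.09 in the others. Cd3e was at 1.90 FPKM in replicate 2 of UUO7 and at 1.32 to 1.38 in the others. In replicate 2 of R2W, Cd3g was at 4.89 FPKM against 7.88 to 8.49, and Nkg7 was at 5.38 FPKM against 6.31 to 6.38.

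Trac lay below the sham mean of 1.48 FPKM in every UUO2 library and above it in every library of UUO7, R1W, R2W and R4W. The log2 difference of UUO2 from sham was -0.62 (SE 0.20, limma adjusted p = 0.0145), and UUO7 differed from UUO2 by 1.52 (SE 0.20, adjusted p = 1.61e-06).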

How the results depend on the processing

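Rescaling changed the split of genes called higher and lower from 8777 and 2177 to 4980 and 5122 in R1W, 8295 and 1909 to 4591 and 4812 in R2W and 8101 and 1710 to 4280 and 4600 in R4W against sham, from 7686 and 2169 to 4440 and 4722 in UUO7 against UUO2 and from 748 and 2082 to 1282 and 1271 in R4W against R1W. Of 1017 values of the 8 genes under the alternatives, 983 kept their direction and side of the threshold, including all 565 of UUO7, R1W, R2W and R4W against sham and of UUO7 against UUO2 (the fold minimum is counted apart); 16 were weaker, 5 stronger and 13 reversed. With a log2 difference of at least 1 required, the genes called were 1294 for UUO2, 4076 for UUO7, 3019 for R1W, 2454 for R2W and 2182 for R4W against sham, 2391 for UUO7 against UUO2, 196 for R1W and 892 for R4W against UUO7, and 114 for R4W against R1W, and 0 of the 8 genes passed in UUO2 against sham or among UUO7, R1W and R4W. It left 7 of 8 in UUO7 against sham, without Trac (0.89), and 7 of 8 in UUO7 against UUO2, without Cd8a (0.74). With a mean of at least 5 FPKM required, fewer of the 8 were tested and 1 was called in each of UUO7, R1W, R2W and R4W against sham and UUO7 against UUO2, and 0 elsewhere. For UUO2 against sham 3 of the 8 were called at a pseudocount of 0.1 and 2 in a fit of those groups alone. For R4W against R1W a fit of those groups alone called 161 genes and leaving out the libraries with raised adipose genes 332; both called 0 of the 8, as did a pseudocount of 0.1 and placing replicate 2 of R4W in R2W. The cause of these shifts was not tested. At an unadjusted p under 0.05, these settings gave 4529, 3814, 5038 and 5017 genes.

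Leaving out each replicate gave 6291 to 7790 genes and 0 to 1 of the 8 for UUO2 against sham, 1116 to 2535 genes for R1W against UUO7 (lowest without replicate 4 of R1W), 4 to 6 of the 8 for R4W against UUO7, and 728 to 3491 genes and 0 to 2 of the 8 for R4W against R1W (lowest without replicate 3 of R1W; 1609 and 1603 without replicates 1 and 4 of R4W). For R1W against UUO7 the count was 1345, 1281 and 1331 without replicates 1, 3 and 4 of UUO7 and 1372 without replicate 1 of R1W. With each replicate left out, the log2 ratio of Cd8a to Cd4 differed by -0.370 to -0.207 and that of Cd3e to Ptprc by -1.407 to -1.286 in UUO7 against sham, and by -0.029 to 0.290 and 0.456 to 0.625 in R4W against UUO7. Without replicate 4 of UUO7, Cd8a to Cd4 (-0.370) and Cd3e to Ptprc (-1.309) in UUO7 against sham, and Cd3e to Ptprc (0.511) in R4W against UUO7, had an adjusted p of 0.0381 (exact permutation test). Reversed values were -0.025 for Cd8a to Cd4 in R4W against UUO7 without the libraries with raised adipose genes (-0.029 without replicate 1 of R4W) and 0.556 for Cd3e to Ptprc in UUO7 against sham with no pseudocount. For Cd4 in UUO2 against sham it was -0.014 rescaled, and -0.034 to 0.036 with each replicate left out. In R4W against R1W, Trbc2 was -0.005 at a pseudocount of 0.1, -0.122 with replicate 2 of R4W moved, -0.198 without the libraries with raised adipose genes and -0.253 to 0.256 with each replicate left out; Cd3d was -0.239 to 0.010 and Nkg7 -0.177 to 0.089. None of these reversed fold changes passed the test.

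Replicate numbers did not pair the animals: same-numbered libraries had mean correlations of deviations of -0.174 to 0.148. A replicate block called 1, 8, 8, 8, 8, 8, 1, 5 and 1 of the 8 genes in the 9 comparisons, as without it, and 11422 genes in UUO7 against sham. Paired ratios had adjusted p of 0.250 to 0.625 (exact sign-flip test). With 4 pairs this test cannot reach a p under 0.05, so these values decide nothing about the ratios. The lowest sham values of Cd3e, Cd3d and Cd4 rest on few fragments, which limits their ratios.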

Other observations

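Markers of further cell types gave these values. Of 7 neutrophil genes 3 had a row, and 2 were called higher at UUO2 and 3 at UUO7, against sham (32.3% and 60.1% of all genes were), with medians of 1.05 and 1.95 on the log2 scale. All 3 had a sham mean under 1 FPKM and so have a row only through the groups where they are high; nothing is read from their count. Their summed level was 10.9 to 17.3 FPKM in UUO7 and 5.69 to 15.8 FPKM in R4W, and it was most spread in R2W, at 6.11 to 45.7 FPKM. Of 8 genes of innate lymphoid and mast cells 6 had a row, and 3 were called higher and 0 lower at UUO7 against sham, beside 60.1% of all genes called higher, with a median of 0.38 that became -0.05 after rescaling.

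Trac was high relative to Ptprc in sham, at 0.571, 1.36, 1.01 and 2.41, and was 0.280 to 0.320 in UUO7 and 0.473 to 0.585 in R4W, each a ratio of FPKM within a library. Trbc2 per Ptprc was 0.604 ± 0.204 in sham and 1.16 ± 0.337 in R4W (SD, n = 4). Neither ratio was tested.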
